A study of Mus musculus with 16 samples.

Results

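The difference between IRF8KO and wild-type (WT) microglia was compared between 2 ages of mice, postnatal day 14 (P14) and 3 months (adult). The contrast is the log2 fold change of IRF8KO over WT in adults minus the same log2 fold change at P14. It compared 10 of the 16 RNA-seq libraries of the series, 3 WT and 3 IRF8KO at P14 and 2 WT and 2 IRF8KO in adults. Of the 55536 genes in the count tables, 18295 were tested. All 16 libraries were labelled female, with microglia sorted by flow cytometry and no treatment. The allele behind the name IRF8KO and the mouse strain are not given in the sources used here. The titles of all 4 adult libraries name batch 2 and those at P14 name no batch, and batch cannot be told apart from adult age. The other 6 libraries, 3 per genotype at postnatal day 9 (P9), are outside the contrast and served as a further age. They were part of the fit of all 16 libraries, which set the gene filter, the scaling and the spread behind the p-values.

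IRF8 belongs to the interferon regulatory factors, a family of transcription factors. It binds composite sites together with partners such as PU.1 and is needed by several myeloid lineages. Microglia are the resident macrophages of the brain. They divide during the first postnatal weeks and are largely quiescent in the adult, while taking on a mature profile of surface receptors and enzymes. A contrast of this kind asks whether the ratio between genotypes at one age equals the ratio at the other. A positive value, called higher here, means that the IRF8KO over WT ratio was larger in adults than at P14, whatever its sign at either age. The same number is also the difference between adults and P14 in IRF8KO minus that difference in WT.

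The 10 libraries held 9.98 M to 14.6 M gene reads each, and levels are given as CPM, read counts scaled to a common library size after TMM adjustment. Log2 CPM correlated between replicates at 0.861 to 0.971, and replicate 3 of IRF8KO P14 had the lowest mean correlation with its group (0.876). Reads outside genes made up 6.39% to 13.6% of uniquely mapped reads in WT P14, 21.03% to 23.2% in IRF8KO P14, 20.1% to 30.0% in WT adults and 22.9% to 35.9% in IRF8KO adults. The labels speak of each brain but not of separate litters, so p-values measure the spread between these samples. Genes that define microglia were read in every library, with Csf1r, the receptor for the survival factors of macrophages, at 7798 to 35932 CPM and Tmem119, a microglial surface protein, at 3489 to 17869 CPM. Exons of Csf1r overlap those of Hmgxb3 on the other strand, and without strand a read in the overlap cannot be given to either gene. Ambiguous reads were counted for no gene and made up 6.41% to 9.05% of uniquely mapped reads over the 16 libraries. Irf8 itself was read in all 10 libraries, between 389 and 1215 CPM, and the genotype is therefore named as labelled. Its genotype effect had a log2 fold change of -0.38 ± 0.32 (SE) at P14 and -0.68 ± 0.40 in adults, and the change was -0.30 ± 0.51 (edgeR adjusted p = 0.832). With the share of reads outside genes as a covariate the change of Irf8 was -0.99 and was called (edgeR adjusted p = 0.0353).

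The genotype effect changed between P14 and adults in 1504 genes, 8.22% of those tested, by edgeR's quasi-likelihood test with a Benjamini-Hochberg adjusted p under 0.05. It was lower in adults in 1272 genes (6.95%) and higher in 232 (1.27%), and the median change over all genes was -0.21 on the log2 scale. The total was 149 genes, 49 higher and 100 lower, without adult IRF8KO replicate 2. Leaving out adult IRF8KO replicate 1 gave 647, leaving out adult WT replicate 2 gave 949 and leaving out WT P14 replicate 2 gave 961. With 1 adult library left in a group, that library was assumed to vary like the other groups. DESeq2 gave 2399 calls on the same contrast. A fit of the 10 libraries alone, without P9, gave 93 higher and 1314 lower. With RLE scaling the median of all genes was -0.33, more than 0.1 below that with TMM, with 189 higher and 1412 lower.

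**Figure D1:**
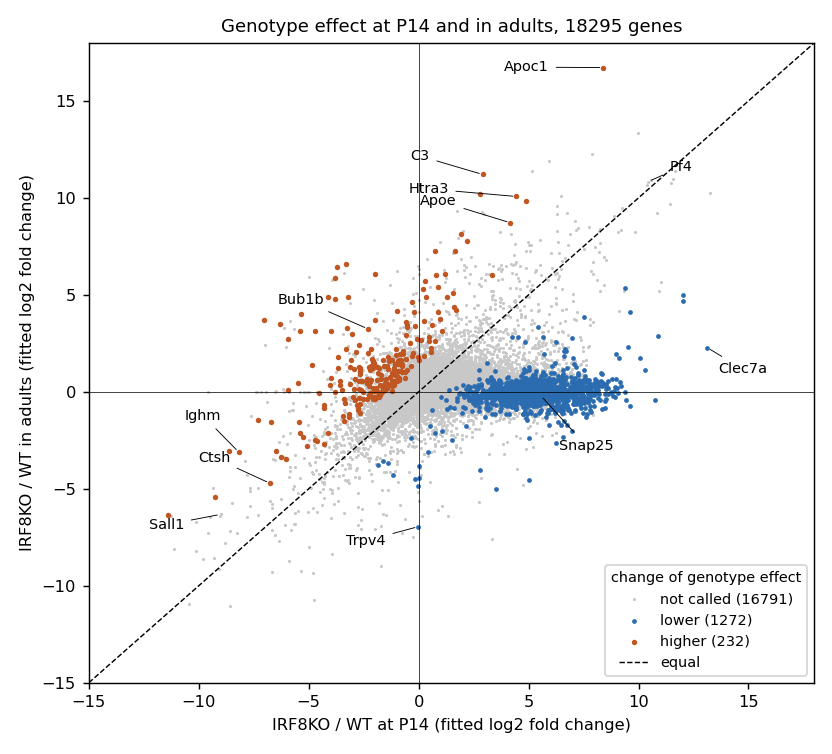
Fitted log2 fold change of IRF8KO over WT at P14 (x) and in adults (y) for 18295 genes. Blue points are the 1272 genes whose effect was lower in adults, orange points the 232 whose effect was higher, and the dashed line marks equal effects. Most blue points lie right of 0 on x and near 0 on y.

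The genotype effect itself was called in 6222 genes at P14 (34%) and in 575 in adults (3.14%), from 6 and 4 libraries respectively. Higher calls made up 23.1% and lower calls 10.9% of tested genes at P14, and 1.65% and 1.49% in adults. These effects use the same libraries as the contrast, so how its genes divide over them describes the make-up of the contrast and is no separate evidence. Of the 1272 lower genes, 1240 were higher in IRF8KO at P14 and not called in adults, 14 were higher at both ages, 9 were lower in adults alone, 4 were lower at both ages and 5 were called at neither. Of the 232 higher genes, 145 were lower in IRF8KO at P14 and not called in adults, 34 were higher in adults alone, 15 were higher at both ages, 14 were lower at both ages, 12 were lower at P14 and higher in adults, and 12 were called at neither. The class of 1240 fell to 97 without adult IRF8KO replicate 2, 420 without adult IRF8KO replicate 1, 787 without adult WT replicate 2 and 810 without WT P14 replicate 2. The class of 145 fell to 33 without adult IRF8KO replicate 2, 74 without WT P14 replicate 2 and 88 to 95 without adult WT replicate 1 or 2 or WT P14 replicate 1. The class of 34 fell to 6 without adult IRF8KO replicate 2 and 17 without adult WT replicate 2.

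The P14 and adult effects compare different libraries, within a fit that shares its estimate of the spread. Genes higher in IRF8KO at both ages numbered 230, which is 5.43% of the 4235 higher at P14 and 76.2% of the 302 higher in adults. Genes lower at both ages numbered 250, which is 12.6% of the 1987 lower at P14 and 91.6% of the 273 lower in adults. The change between ages was not called for 201 of those 230 and 232 of those 250. The 201 became 117 to 128 without adult IRF8KO replicate 2 or either adult WT library, and the 232 became 91 without adult IRF8KO replicate 1 and 359 without adult WT replicate 1. Pf4, a chemokine of border-associated macrophages and platelets, is an example. It stood at 0.858 to 2.36 CPM in WT P14, 1252 to 3340 in IRF8KO P14, 0 to 0.67 in WT adults and 503 to 1015 in IRF8KO adults, with a change of 0.40 ± 0.95 (edgeR adjusted p = 0.891). Sall1, a transcription factor that defines microglia among brain macrophages, stood at 125 to 235 CPM in WT P14 and 49.0 to 196 in WT adults. In IRF8KO it was at 0.219 to 0.598 CPM at P14 and 0.495 to 2.44 in adults, and its change of 2.68 ± 0.93 was not called (edgeR adjusted p = 0.0912). It was called with no low-count filter (2.71, edgeR adjusted p = 0.00124), with reads outside genes as a covariate (3.94, edgeR adjusted p = 0.00152) and without adult WT replicate 1 (4.01, edgeR adjusted p = 0.00993).

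Read by genotype, 4950 genes (27.1%) differed between adults and P14 in WT, and 53 (0.29%) did in IRF8KO, each from 5 libraries. WT had 19.7% of genes higher and 7.4% lower in adults, and IRF8KO 0.164% and 0.126%. In IRF8KO, 1142 genes had an unadjusted p under 0.05, DESeq2 called 212 and limma voom 95. Among the 1272 lower genes, WT P14 had the lowest mean of the 4 groups in 1256 (98.7%). Among the 232 higher genes, WT P14 had the highest mean in 180 and WT adults the lowest in 156.

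**Figure D2:**
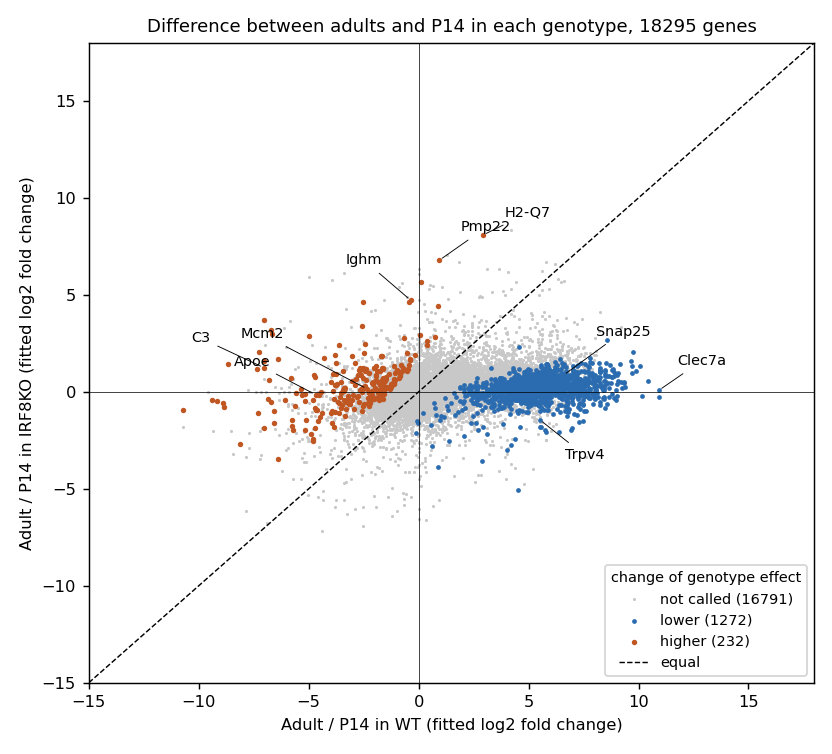
Fitted log2 fold change of adults over P14 in WT (x) and in IRF8KO (y) for 18295 genes, coloured by the change of the genotype effect. The 1272 blue and 232 orange points spread along x, while on y only a few named genes such as Ighm, Pmp22 and H2-Q7 stand far from 0.

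The higher genes included lipid carriers and complement C3. Among 16 tested genes of lipid transport and LXR control, 2 were higher in the contrast and none lower, where 1.27% of all genes were higher. Apoe, the main lipid carrier protein of the brain, had 9114, 7067 and 6337 CPM in WT P14, and 74502, 98349 and 234520 in IRF8KO P14. In adults it had 184 and 401 CPM in WT against 85168 and 160268 in IRF8KO. No IRF8KO library overlapped a WT library at either age, and WT adults lay below WT P14 while the IRF8KO ranges overlapped between ages. The log2 genotype effect of Apoe was 4.18 ± 0.54 at P14 and 8.71 ± 0.82 in adults, a change of 4.54 ± 0.80 (edgeR adjusted p = 0.00346). At P9 the effect was 2.56.

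Apoc1, which lies in the same apolipoprotein gene cluster, had 3.26 to 6.57 CPM in WT P14 and 897 to 2874 in IRF8KO P14. It had 0 reads in both WT adult libraries, while IRF8KO adults held 709 and 1444 CPM. With 3 reads placed over the WT adult group as a floor, Apoc1 was at least 8456-fold higher in IRF8KO adults, and its effect changed by at least 4.78 on the log2 scale (edgeR adjusted p = 0.00335). Htra3, a secreted serine protease, had 40.7 to 65.6 CPM in WT P14, 832 to 1628 in IRF8KO P14, 0.487 and 1.26 in WT adults and 611 and 1156 in IRF8KO adults. As with Apoe, the IRF8KO ranges overlapped between the ages and the WT ranges did not. The Htra3 effect changed by 5.62 ± 0.67 (edgeR adjusted p = 0.000595).

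C3, the central component of the complement cascade, had 4.89 to 8.42 CPM in WT P14 and 27.5 to 64.5 in IRF8KO P14. A single read was counted over both WT adult libraries, against 87.1 and 145 CPM in IRF8KO adults. The ratio in adults was 2784 with an exact 95% counting interval from 499 to 110010, and such intervals cover counting error only. The C3 effect was 1.04 at P9, where it was not called (edgeR adjusted p = 0.0703), and 2.92 ± 0.40 at P14. Its change from P14 to adults was called (edgeR adjusted p = 0.000252). Ackr3, a scavenging chemokine receptor, rose from an effect of 1.21 ± 0.38 at P14 to 6.07 ± 0.60 in adults (edgeR adjusted p for the change 0.00157). Ptger3, a prostaglandin E2 receptor chosen after its values were seen, had 45.2 to 52.2 CPM in IRF8KO P14 and 74.0 and 106 in IRF8KO adults, but 11.5 to 23.01 in WT P14 and 0 and 0.974 in WT adults. The calls for Apoe, Apoc1, Htra3, C3, Ackr3 and Ptger3 were kept under all 19 alternatives tried.

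**Figure D3:**
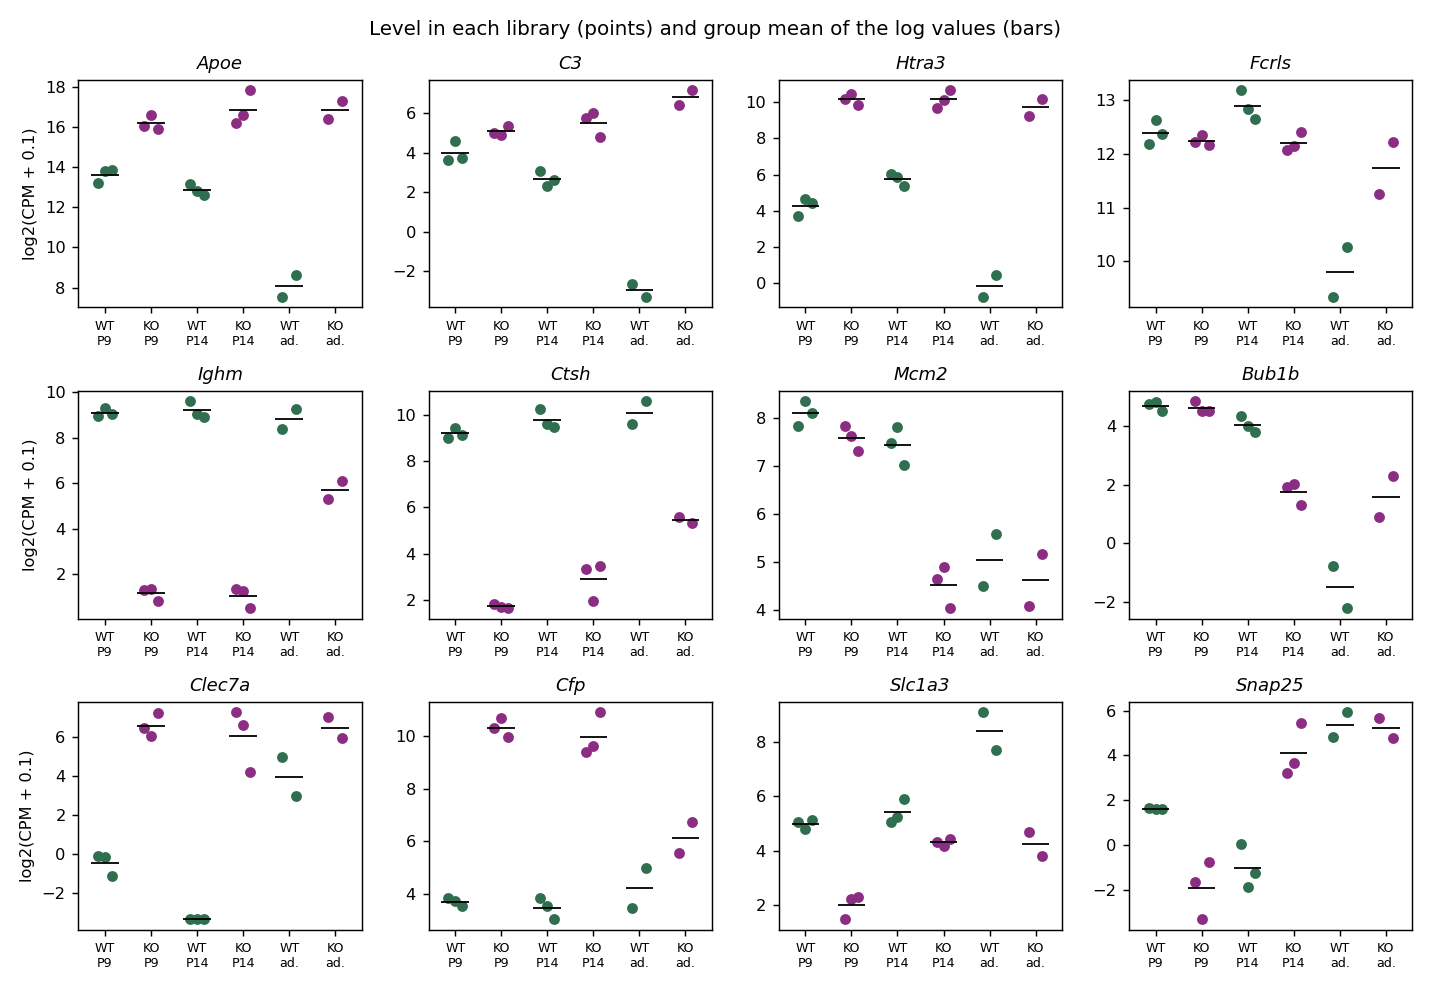
Level of 12 genes in each of the 16 libraries, as log2(CPM + 0.1), for WT (green) and IRF8KO (purple, KO) at P9, P14 and in adults (ad.); bars are group means of the log values. Of the P14 and adult groups, Apoe, C3 and Htra3 are lowest in WT adults, and WT P14 lies below IRF8KO P14. Ighm and Ctsh are low in IRF8KO and less so in adults, and Clec7a and Snap25 are near absent in WT P14.

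Fcrls, an Fc receptor-like scavenger receptor of the microglial signature, changed the order of the genotypes. It had 6395 to 9317 CPM in WT P14 and 4296 to 5417 in IRF8KO P14, an effect that was not called (-0.69 ± 0.33, edgeR adjusted p = 0.117). In adults WT had 645 and 1224 CPM and IRF8KO had 2433 and 4764, an effect of 1.95 ± 0.42 (edgeR adjusted p = 0.0118). The groups did not overlap at either age, and WT was the higher group at P14 and the lower one in adults. Its effect changed by 2.64 ± 0.53 (edgeR adjusted p = 0.00627).

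Of the 28 tested genes of the homeostatic microglia list, Fcrls and Sparc were called in the contrast, both higher, with a list median of 0.09 against -0.21 over all genes (-0.05 with RLE scaling). In the contrast 1.27% of all genes were higher and 6.95% lower. At P14, 14 members were lower in IRF8KO, against 10.9% of all genes. In adults 6 were lower and 1 higher, against 1.49% and 1.65% of all genes. Sparc, a matrix-associated glycoprotein, had an effect of -3.14 ± 0.30 at P14 and -1.15 ± 0.34 in adults (edgeR adjusted p for the change 0.0102). Its change was 1.70 and no longer called without adult IRF8KO replicate 2. In a fit of the 10 libraries alone it was 1.84 and not called (edgeR adjusted p = 0.0616). The purinergic receptor gene P2ry12, whose exons overlap Med12l on the other strand, changed by 0.53 ± 1.11 and Tmem119 by 0.41 ± 0.66, neither called (edgeR adjusted p = 0.874 and 0.823).

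A small set of genes changed in IRF8KO itself with age. Ighm, the constant region gene of immunoglobulin M, had 486 to 777 CPM in WT P14 and 331 and 604 in WT adults. In IRF8KO it had 2.48, 2.26 and 1.32 CPM at P14 and 39.9 and 68.6 in adults. Every IRF8KO adult library lay above every IRF8KO P14 library and below every WT library. The effect was -7.99 at P9, -8.18 ± 0.43 at P14 and -3.11 ± 0.41 in adults, a change of 5.07 ± 0.54 (edgeR adjusted p = 0.000252). Of the 14 lymphocyte markers on the list, 11 were at 0 reads in WT P14, 8 in IRF8KO P14, 7 in WT adults and 4 in IRF8KO adults, with Cd3g, Nkg7 and Gzmb at 0 in all 4 groups. Their summed level was 227 to 310.2 CPM in WT P14, 27.6 to 63.1 in IRF8KO P14, 47.4 to 80.7 in WT adults and 4.82 to 11.97 in IRF8KO adults. Of the 14 only 4 were tested, and 1 reached a minimum of 10 CPM in 2 libraries, so the sum describes few genes. Among the 4, 2 were higher and 1 lower in IRF8KO at P14 (median 4.29), and 1 was lower in adults. From P14 to adult IRF8KO, fewer markers were at 0 reads and the summed level was lower. The part of these markers in the change of Ighm was not tested.

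Pmp22, a membrane protein best known from myelin, had 0.292 to 1.25 CPM in IRF8KO P14 against 75.2 and 84.8 in IRF8KO adults. WT had 96.6 to 144 CPM at P14 and 194 and 246 in adults, so the genotypes were still apart in adults, where the effect of -1.46 ± 0.47 was not called. The Pmp22 effect changed by 5.84 ± 0.68 (edgeR adjusted p = 0.000485). H2-Q7, a non-classical MHC class I gene of a multigene family in which reads can be split between copies, had 1 read over the IRF8KO P14 libraries and 10.9 and 9.89 CPM in IRF8KO adults. WT went from 3.25 to 4.83 CPM at P14 to 11.6 and 50.7 in adults, and the P14 ratio of WT over IRF8KO was 139.5 (counting interval 24.6 to 5550). The change of H2-Q7 was called (edgeR adjusted p = 0.0158), but not without adult IRF8KO replicate 2 (edgeR adjusted p = 0.0685). Ctsh, the lysosomal aminopeptidase cathepsin H, was higher in IRF8KO adults (39.9 and 47.9 CPM) than in IRF8KO P14 (3.75 to 11.1). Its change of 2.04 ± 0.58 (edgeR adjusted p = 0.0356) lost its call under 9 of 19 alternatives, 6 of them fits that left out 1 library. The 9 included a fit of the 10 libraries alone (edgeR adjusted p = 0.0996). Without adult WT replicate 1 the change was 1.63.

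Properdin, encoded by Cfp, stabilises the alternative pathway convertase of complement and went the other way. Cfp had 8.17 to 14.5 CPM in WT P14 and 667, 792 and 1900 in IRF8KO P14. In adults WT had 11.02 and 31.6 CPM and IRF8KO 46.9 and 105. IRF8KO libraries exceeded WT libraries at both ages, and IRF8KO adults lay far below IRF8KO P14. The effect was 6.63 at P9, 6.62 ± 0.56 at P14 and 1.84 ± 0.56 in adults (not called), a change of -4.78 ± 0.74 (edgeR adjusted p = 0.00238). C3 and Cfp were the members of the complement list that were called, 1 higher and 1 lower of 11 tested, with a median of -0.10. Over all genes 1.27% were higher and 6.95% lower.

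Genes of cell division were the list with the most higher calls. Of 28 tested, 12 were higher in the contrast and none lower, at a median of 1.97, against 1.27% higher among all genes. At P14, 22 of the 28 were lower in IRF8KO with a median of -1.79, and in adults 1 was higher and none lower with a median of 0.04. From P14 to adults 25 of the 28 fell in WT and 1 fell in IRF8KO. The summed level of the list was 954 to 1427 CPM in WT P14, 271 to 319.6 in IRF8KO P14, 187 to 333 in WT adults and 190 to 309.8 in IRF8KO adults. WT P14 thus stood above the other 3 groups, which overlapped. At P9, in libraries that the contrast does not compare, none of the 28 was called (median -0.28).

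The called members were Mcm2, Mcm3 and Mcm6 of the replicative helicase, Cdt1, which loads that helicase, Ccne1, the cyclin of S phase entry, and Tk1, a nucleotide salvage kinase. Those of mitosis were Cdk1, Ccnb1, Plk1, Birc5, Cenpa and Ube2c. Mcm2, and Cdk1 and Ube2c below, were picked from these after their values were seen. Mcm2 had 130 to 225 CPM in WT P14 and 16.3 to 29.7 in IRF8KO P14, and 22.4 and 48.1 in WT adults and 16.7 and 35.9 in IRF8KO adults. Genotypes were apart at P14 and overlapped in adults. The Mcm2 effect changed by 2.48 ± 0.57 (edgeR adjusted p = 0.0119) and was not called without adult IRF8KO replicate 2 (1.89, edgeR adjusted p = 0.125). Ccne1, called under all 19 alternatives, had 11.2 to 16.9 CPM in WT P14 against 1.92 to 2.55 in IRF8KO P14, and a change of 3.59 ± 0.63 (edgeR adjusted p = 0.00347). Mki67, a marker of cycling cells, was not called (-1.43 ± 1.203, edgeR adjusted p = 0.587), with 2.05 to 10.7 CPM in WT P14 and 1.44 to 6.42 in IRF8KO P14. The list had 2 higher calls without adult IRF8KO replicate 2, with only the 10 libraries in the fit 7, and with the share of reads outside genes as a covariate 9.

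Promoters of mitotic genes are known for CCAAT boxes and for the cell cycle homology region, whose core reads TTTGAA or TTTAAA. The promoters of Cdk1 and Ube2c are shown because these members moved together and carry such letters. Cdk1 is the kinase that drives entry into mitosis and Ube2c the ubiquitin-conjugating enzyme of the anaphase-promoting complex. The sequences are from RefSeq (GRCm38.p6), 250 bases before to 50 after the gene start, at chr10:69352863-69353162 on the minus strand and chr2:164769679-164769978 on the plus strand, and capitals mark the CCAAT box and both forms of the homology region, on either strand.
Cdk1: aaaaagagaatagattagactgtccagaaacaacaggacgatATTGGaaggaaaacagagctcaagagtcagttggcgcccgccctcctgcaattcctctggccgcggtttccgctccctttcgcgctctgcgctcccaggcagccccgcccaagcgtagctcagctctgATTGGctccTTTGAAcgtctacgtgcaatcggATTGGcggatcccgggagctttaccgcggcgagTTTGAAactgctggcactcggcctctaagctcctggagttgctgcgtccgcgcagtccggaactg
Ube2c: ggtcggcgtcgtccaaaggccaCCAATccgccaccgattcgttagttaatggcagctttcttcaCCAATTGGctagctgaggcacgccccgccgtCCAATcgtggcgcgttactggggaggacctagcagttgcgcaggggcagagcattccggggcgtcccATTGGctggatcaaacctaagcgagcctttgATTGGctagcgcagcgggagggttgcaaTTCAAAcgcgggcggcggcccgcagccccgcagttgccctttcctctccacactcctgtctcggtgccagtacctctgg
Cdk1 held 3 CCAAT boxes and 2 copies of TTTGAA, and Ube2c held 6 CCAAT boxes, of which a forward and a reverse one overlap, and 1 TTTGAA. Over the 12 called members, 8 promoters (66.7%) held CCAAT, 5 (41.7%) TTTGAA and 6 (50%) TTTAAA, against 37.4%, 17.9% and 13.2% of all 32851 promoters. The shares were 37.2%, 12.3% and 9.36% in promoters of tested genes, and 46.7%, 14.7% and 13.7% in those of all higher genes. These motifs were chosen after the calls were seen, and a match is a description of letters. Cdk1 had 24.7 to 43.1 CPM in WT P14, 12.8 to 20.5 in IRF8KO P14, 0.913 and 1.37 in WT adults and 2.44 and 3.56 in IRF8KO adults. The IRF8KO libraries lay below WT at P14 and above WT in adults. Its effect changed by 2.35 ± 0.57 (edgeR adjusted p = 0.0161), and that of Ube2c, whose exons overlap Tnnc2 on the other strand, by 4.02 ± 0.96 (edgeR adjusted p = 0.0156). Cdk1 lost its call under 4 of 19 alternatives and Ube2c under 3. Those of Cdk1 included limma voom (adjusted p = 0.0715) and a fit of the 10 libraries alone (edgeR adjusted p = 0.0616). Those of Ube2c each left out an adult library. Without adult IRF8KO replicate 2, where both calls were lost, the changes were 2.15 for Cdk1 and 4.10 for Ube2c.

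A class of 12 genes was called lower in IRF8KO at P14 and higher in adults, and it includes further genes of mitosis. The class held 1 gene without adult IRF8KO replicate 2, 5 without adult WT replicate 1 or WT P14 replicate 2, 6 without IRF8KO P14 replicate 1 or 2 and 7 without WT P14 replicate 1. Bub1b, the spindle checkpoint kinase, had 13.96 to 20.3 CPM in WT P14 and 2.39 to 3.98 in IRF8KO P14, then 0.115 and 0.487 in WT adults and 1.77 and 4.85 in IRF8KO adults. The order of the genotypes was opposite at the 2 ages with no overlap at either. The effect was -2.30 ± 0.41 at P14 and 3.24 ± 0.61 in adults, a change of 5.54 ± 0.74 (edgeR adjusted p = 0.00157), and -0.07 at P9. Cenpa, the centromeric histone, had 30.7 to 47.5 CPM in WT P14 and 14.4 to 25.1 in IRF8KO P14, and 3.04 and 7.67 in WT adults against 23.6 and 25.9 in IRF8KO adults. IRF8KO levels of Cenpa overlapped between ages, and its effect changed by 3.27 ± 0.55 (edgeR adjusted p = 0.00306). Others of this class, named after their values were seen, were Kif22, a chromosome-binding kinesin and P2rx1, an ATP-gated ion channel. P2rx1 had 118 to 179 CPM in WT P14, 54.6 to 61.8 in IRF8KO P14, 11.7 and 20.7 in WT adults and 39.99 and 58.9 in IRF8KO adults, a change of 2.97 ± 0.46 (edgeR adjusted p = 0.00238). Here too the WT libraries spanned both the highest and the lowest levels.

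Genes of cholesterol supply were called in part. Of 22 tested genes of the cholesterol list 3 were higher and none lower in the contrast, against 1.27% higher and 6.95% lower over all genes, with a median of 0.54 against -0.21. Among them were Sqle, the squalene epoxidase, and Srebf2, the transcription factor that controls the pathway. Sqle had 13.1 to 19.4 CPM in WT P14 and 6.35 to 11.7 in IRF8KO P14, and 3.23 and 4.69 in WT adults against 13.4 and 10.6 in IRF8KO adults. The genotypes did not overlap at either age and stood in opposite order, though its adult effect of 1.61 ± 0.44 was not called (edgeR adjusted p = 0.0537). Sqle changed by 2.56 ± 0.56 (edgeR adjusted p = 0.00937) and Srebf2 by 1.93 ± 0.48 (edgeR adjusted p = 0.018), the latter not without adult IRF8KO replicate 2 (edgeR adjusted p = 0.105) or adult WT replicate 1 (edgeR adjusted p = 0.0665).

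Plxnd1, Smpdl3b and Il2rg encode proteins of the cell surface and were higher in the contrast. Plxnd1, a semaphorin receptor, had 48.6 to 81.1 CPM in WT P14 and 2.74 to 7.22 in the other 3 groups. WT P14 alone was high, and the effect changed by 3.92 ± 0.60 (edgeR adjusted p = 0.00238). Smpdl3b, a membrane phospholipase-like protein, had 36.2 to 51.2 CPM in WT P14 and 2.12 to 5.63 in IRF8KO P14, against 6.27 and 10.4 in WT adults and 11.9 and 26.9 in IRF8KO adults. Its effect changed by 4.90 ± 0.81 (edgeR adjusted p = 0.00294). Il2rg, the common cytokine receptor chain, was named after its values were seen. It had 3.69 to 7.50 CPM in WT P14 and 7.22 to 13.2 in IRF8KO P14, 0.458 and 0.487 in WT adults and 17.04 and 23.7 in IRF8KO adults, a change of 4.50 ± 0.68 (edgeR adjusted p = 0.00219). All 3 genes kept their calls under the 19 alternatives.

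Tlr2, the receptor for bacterial lipoproteins, showed an effect in adults and none that was called earlier. Its levels were 102 to 135 CPM in WT P14, 105 to 144 in IRF8KO P14, 72.2 and 93.1 in WT adults and 235 and 278 in IRF8KO adults. Genotypes overlapped at P14 and were apart in adults, and the change was 1.63 ± 0.38 (edgeR adjusted p = 0.0134). In a fit of the 10 libraries alone it was 1.43 and not called (edgeR adjusted p = 0.11). Without adult IRF8KO replicate 2 it was 1.56 and not called (edgeR adjusted p = 0.0842), and likewise without adult WT replicate 2 (1.16, edgeR adjusted p = 0.161).

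Many of the neuron markers tested were among the lower genes. Of 24 tested neuron markers 15 were lower in the contrast and none higher, at a median of -4.06, against 6.95% lower among all genes. At P14, 21 of the 24 were higher in IRF8KO (median 4.22), and in adults none was called (median 0.09). Summed over the list, WT P14 libraries held 34.3 to 77.8 CPM, IRF8KO P14 719 to 2500, WT adults 1222 to 2309 and IRF8KO adults 1627 to 2121, and all 24 markers were read in each of the 4 groups. WT P14 was thus far below the other 3 groups, which overlapped. The list had 5 lower calls without adult IRF8KO replicate 2 and without adult IRF8KO replicate 1 it had 10. Without IRF8KO P14 replicate 3, which held the 2500 CPM, it had 11.

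**Figure D4:**
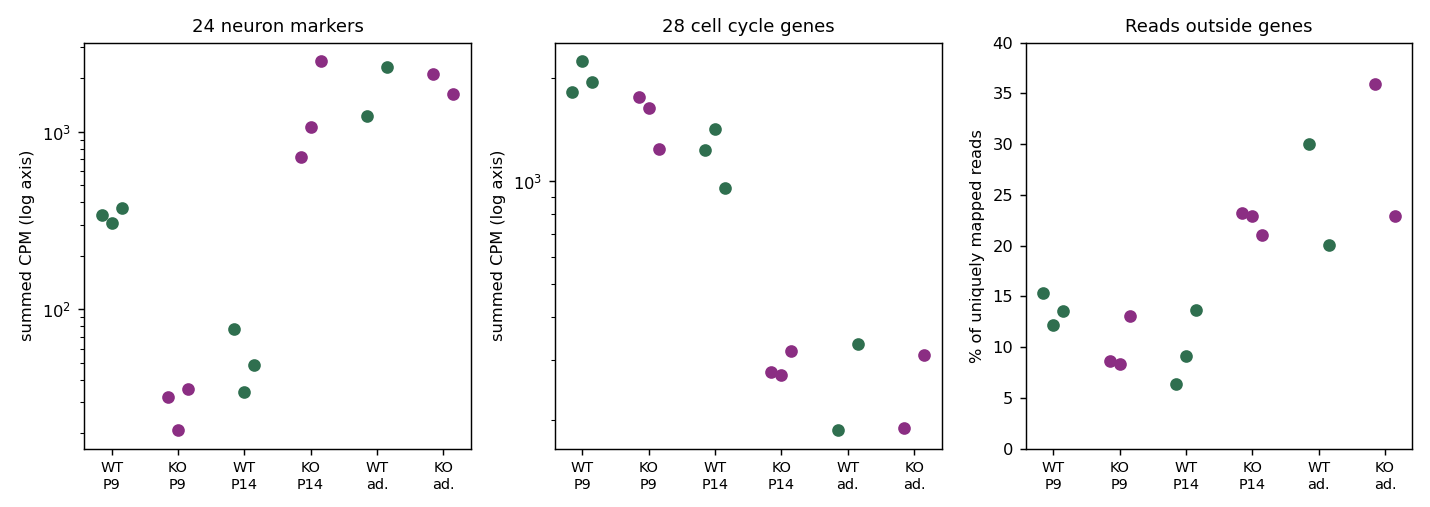
Summed CPM of the 24 neuron markers (left, log axis) and of the 28 cell cycle genes (middle, log axis), and reads outside genes as a percentage of uniquely mapped reads (right), in each library of WT (green) and IRF8KO (purple, KO). Neuron markers and reads outside genes are low in WT P14 and higher in the other 3 groups of the contrast, and cell cycle genes are high in WT P14.

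Snap25, a component of the synaptic vesicle fusion machinery, had 0.172 to 0.924 CPM in WT P14 and 9.04, 12.4 and 43.7 in IRF8KO P14. Adults had 27.9 and 60.3 CPM in WT and 27.3 and 50.4 in IRF8KO. Its effect changed by -5.72 ± 1.08 (edgeR adjusted p = 0.00447), and by -5.21 without adult IRF8KO replicate 2, which ended the call (edgeR adjusted p = 0.0653). Mapt, the microtubule protein tau, had 0.719 to 2.40 CPM in WT P14, 35.4 to 125 in IRF8KO P14, 48.4 and 122 in WT adults and 76.0 and 90.5 in IRF8KO adults, a change of -5.56 ± 0.82 (edgeR adjusted p = 0.00209). Snhg11, a long noncoding RNA abundant in neurons, had 1.37 to 9.96 CPM in WT P14, 248 to 897 in IRF8KO P14, 433 and 1099 in WT adults and 507 and 774 in IRF8KO adults. In each of these genes WT P14 alone was low and adult genotypes overlapped. The Snhg11 effect changed by -6.86 ± 1.07 (edgeR adjusted p = 0.00239), and Cacna1b, a presynaptic calcium channel subunit, by -6.10 ± 0.85 (edgeR adjusted p = 0.00157). Gria1 and Slc17a7, a glutamate receptor subunit and the vesicular glutamate transporter of cortical neurons, changed by -5.20 ± 0.87 and -4.78 ± 0.81 (edgeR adjusted p = 0.00311 and 0.00323).

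At P9 these transcripts stood in the opposite order. Of the 24 neuron markers 18 were lower in IRF8KO at P9 and none higher (median -3.40), with a summed level of 305 to 373 CPM in WT P9 and 20.8 to 35.4 in IRF8KO P9. Over the 1272 lower genes, 827 were called lower in IRF8KO at P9 and 66 higher. The 827 are 65.0% of the lower genes and 39.8% of the 2077 genes lower at P9, and of all tested genes 11.4% were lower and 4.25% higher at P9. Reads outside genes were 12.1% to 15.3% in WT P9 and 8.315% to 13.1% in IRF8KO P9. The part of neuronal RNA and of reads outside genes in the change of the genotype effect was not tested beyond a fit with the share of reads outside genes as a covariate. That fit called 1452 genes, 193 higher and 1259 lower, and 14 of the 24 neuron markers lower. In bulk RNA, more cells or fragments of a type cannot be told apart from more RNA per cell.

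Markers of other glia were lower too, in smaller numbers. Over all tested genes 6.95% were lower, and the median was -0.21. Of 14 oligodendrocyte lineage genes 4 were lower, among them Cspg4, Mobp and Mbp, and none higher, at a median of -2.65. Mbp, the myelin basic protein, had 91.6 to 172 CPM in WT P14 and 386 to 1242 in IRF8KO P14, and 219 and 371 in WT adults and 257 and 340 in IRF8KO adults. Cspg4, the proteoglycan NG2, differed from it by staying higher in IRF8KO adults, with 61.2 and 116 CPM against 4.14 and 8.36 in WT adults. At P14 Cspg4 had 42.0 to 93.4 CPM in IRF8KO and 0.0793 to 0.924 in WT, and its effect changed by -3.67 ± 0.85 (edgeR adjusted p = 0.0131). Of 11 astrocyte genes Slc1a2, Slc1a3 and Aqp4 were lower, at a median of -1.28. Without adult IRF8KO replicate 2 none of either list was called, and without adult IRF8KO replicate 1 there was 1 call in the oligodendrocyte list and 2 in the astrocyte list. Summed levels were 440 to 614 CPM in WT P14, 616 to 1640 in IRF8KO P14, 447.5 to 900.1 in WT adults and 471 to 605 in IRF8KO adults for the oligodendrocyte list. For the astrocyte list they were 71.1 to 113 CPM, 124 to 391, 326 to 624 and 140.2 to 144 in the same order.

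Slc1a3, a glutamate transporter best known from astrocytes, did not follow the neuron pattern. It had 33.1, 38.1 and 60.1 CPM in WT P14, and 17.9 to 21.5 in IRF8KO P14. WT adults had 548 and 208 CPM while IRF8KO adults had 25.4 and 13.8. WT adults alone were high, and IRF8KO lay below WT at both ages. The effect was -1.14 ± 0.36 at P14 and -4.26 ± 0.50 in adults, a change of -3.12 ± 0.58 (edgeR adjusted p = 0.00416), which lost its call without adult IRF8KO replicate 2 (-2.68, edgeR adjusted p = 0.0682).

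A few other genes, named after their values were seen, shared that pattern of a WT adult level that IRF8KO adults did not reach. Trpv4, a calcium channel opened by heat and cell swelling, had 0.687 to 2.78 CPM in WT P14 and 0.948 to 2.03 in IRF8KO P14. In adults it had 37.2 and 95.1 CPM in WT against 0.883 and 0.0989 in IRF8KO. The genotypes overlapped at P14 and were far apart in adults, and the change was -6.94 ± 1.10 (edgeR adjusted p = 0.00264). Dgat2, which makes triglycerides, had 22.2 and 48.9 CPM in WT adults and 2.06 to 5.86 in the other 3 groups, a change of -3.55 ± 0.76 (edgeR adjusted p = 0.00881). Dgat2 without adult IRF8KO replicate 2 was at -3.34 and not called (edgeR adjusted p = 0.0856). The 9 genes lower in adults alone were Trpv4, Dgat2, Adrb1, Lrrc3, Wscd1, Rbpms, Fn3krp, Snx22 and Gm15753.

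Clec7a, which encodes the beta-glucan receptor Dectin-1 and is a marker of disease-associated microglia, was lower in the contrast. The promoter of Clec7a is shown because its window holds a composite ETS-IRF motif, which reads GGAA, then 2 bases of any kind, then GAAA, the kind of site bound by PU.1 with IRF8. It lies at chr6:129472730-129473029 on the minus strand (RefSeq, GRCm38.p6), and capitals mark the motif, here on the reverse strand.
Clec7a: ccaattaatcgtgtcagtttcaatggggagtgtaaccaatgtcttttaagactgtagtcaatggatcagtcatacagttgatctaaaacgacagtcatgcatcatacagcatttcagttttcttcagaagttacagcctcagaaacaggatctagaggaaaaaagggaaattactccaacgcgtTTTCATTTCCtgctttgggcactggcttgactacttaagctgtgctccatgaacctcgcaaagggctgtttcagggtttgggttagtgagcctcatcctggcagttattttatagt
The motif, searched on both strands, occurred in 2.715% of all 32851 promoters of this length. It occurred in 2.08% of promoters of the lower genes and 2.38% of those of tested genes. Clec7a was picked with the matches known, and promoters of other genes looked at held the motif too, Slc1a2 among them. A match is a description of letters, and its part in the change of Clec7a was not tested. Clec7a had 0 reads in all 3 WT P14 libraries and 151, 97.1 and 18.6 CPM in IRF8KO P14. Adults had 30.7 and 7.67 CPM in WT and 127 and 61.1 in IRF8KO. WT P14 was the group at 0, and the ranges of the IRF8KO groups overlapped between ages. With 3 reads as the floor over WT P14, Clec7a was at least 1128-fold higher in IRF8KO at P14, and its effect fell by 8.004 or more on the log2 scale (edgeR adjusted p = 0.003). At P9 the effect was 7.17. The annotation used here files Clec7a as a polymorphic pseudogene, a class for genes that are coding in some strains.

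The disease-associated list had 26 tested members, of which Apoe was higher and Clec7a and Itgax lower, at a median of 0.11 (-0.02 with RLE scaling). Over all genes 1.27% were higher and 6.95% lower in the contrast. Itgax, the integrin CD11c, changed by -3.04 ± 0.79 (edgeR adjusted p = 0.0256) but lost its call in 5 of the fits without 1 library. Its change was -2.45 without adult IRF8KO replicate 1. The call was also lost in a fit of the 10 libraries alone (-3.17, edgeR adjusted p = 0.0527). The interferon-stimulated list had no call in the contrast by edgeR's test among its 26 genes, at a median of 0.03 (-0.11 with RLE scaling). Within each age, 13 members were higher and 1 lower in IRF8KO at P14 (median 1.58), and 5 were higher in adults (median 1.68). Over all tested genes 23.1% were higher and 10.9% lower at P14, and 1.65% were higher in adults. The summed level of the list was 259 to 274 CPM in WT P14, 577 to 797 in IRF8KO P14, 292 to 387 in WT adults and 717 to 926 in IRF8KO adults.

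**Figure D5:**
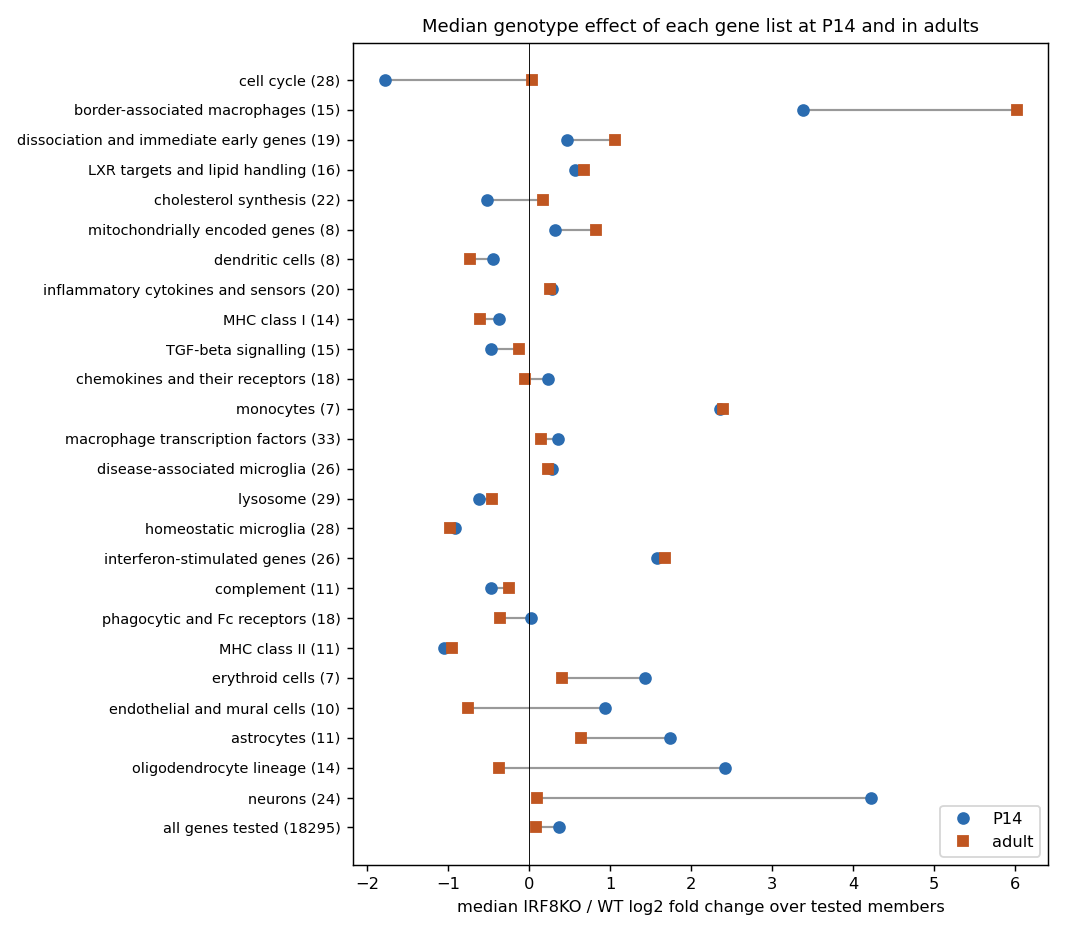
Median log2 fold change of IRF8KO over WT over the tested members of each gene list with at least 7 of them (number in brackets) at P14 (circles) and in adults (squares), ordered by the median change, with all genes at the bottom. The longest lines between the ages are those of neurons, oligodendrocyte lineage and border-associated macrophages, followed by cell cycle. The lymphocyte list, with 4 tested members (medians of 4.29 at P14 and 1.66 in adults), and the neutrophil list are not plotted.

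Markers of border-associated macrophages, which line the vessels and meninges of the brain, were higher in IRF8KO at both ages. Of 15 tested, 11 were higher at P14 (median 3.38) and 13 in adults (median 6.02), against 23.1% and 1.65% of all tested genes. In the contrast Stab1 and Dab2 were higher and Cd38 lower, at a median of 1.60, against 1.27% higher and 6.95% lower over all genes. The summed level was 1291 to 1727 CPM in WT P14, 5574 to 6357 in IRF8KO P14, 269 to 348 in WT adults and 2581 to 3861 in IRF8KO adults, and each adult range lay below the P14 range of its genotype. Mrc1, the mannose receptor, had 16.9 to 57.5 CPM in WT P14, 78.6 to 703 in IRF8KO P14, 0.687 and 7.49 in WT adults and 94.5 and 166 in IRF8KO adults, a change of 1.59 ± 1.14 that was not called (edgeR adjusted p = 0.491) except with no low-count filter (1.58, edgeR adjusted p = 0.0313). Stab1, a scavenger receptor whose exons overlap Nt5dc2 on the other strand, changed by 1.71 ± 0.49 (edgeR adjusted p = 0.0404). Dab2, an endocytic adaptor, changed by 2.70 ± 0.81 (edgeR adjusted p = 0.0488). Stab1 lost its call under 11 and Dab2 under 13 of 19 alternatives, RLE and upper-quartile scaling among them for both genes. Cd38 lost its call under 7 of the 19. Without adult IRF8KO replicate 2, where each of these calls was lost, the changes were 1.42 for Stab1 and 2.91 for Dab2. Cd38 had 0 reads in WT P14, so its fitted change depends on the prior count. With 3 reads as the floor and all libraries, the bound for Cd38 is a change of -4.50 or lower. Lyve1 had 0 reads in WT P14, IRF8KO P14 and WT adults, Cd163 had 0 in both WT groups and F13a1 in WT adults. Clec12a, like Cd38, had 0 in WT P14.

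Markers of the other cell types that a sort could hold had few calls in the contrast, where 1.27% of all genes were higher and 6.95% lower. None was called among 7 monocyte, 4 neutrophil, 4 lymphocyte, 10 endothelial and mural and 7 erythroid genes by edgeR's test. Of 8 dendritic cell genes Zbtb46, a transcription factor of classical dendritic cells, was higher and Flt3, the growth factor receptor of that lineage, lower. Zbtb46 (edgeR adjusted p = 0.0423) lost the call under 15 of 19 alternatives, RLE and upper-quartile scaling and the replicate block among them (edgeR adjusted p = 0.0547, 0.052 and 0.0508), over a range of adjusted p from 0.0116 to 0.241. Flt3 (edgeR adjusted p = 0.0319) lost it in 5 of the fits without 1 library, up to an edgeR adjusted p of 0.212 without adult IRF8KO replicate 2. Summed monocyte markers were 12.45 to 15.9 CPM in WT P14, 19.6 to 87.6 in IRF8KO P14, 6.39 to 13.4 in WT adults and 99.9 to 100.3 in IRF8KO adults. Their part in the changes described above was not tested.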

How the data were processed

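Microglial RNA was sequenced after SMART-Seq v4 amplification (15 cycles) and Nextera XT library preparation from 1 ng of cDNA, per the labels' protocols. Per the submitters' processing notes, bcl2fastq, STAR 2.5.2b, Picard 2.17.11 and featureCounts were used on mm10, with no roles given. The authors deposited raw read counts, given per gene and library, in the layout of STAR's gene counts, and the unstranded column was used after dropping 4 summary lines that name no gene (21.9% to 47.0% of reads). All gene identifiers matched GENCODE M21.

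Genes passing filterByExpr (18295) were fitted in R 4.3.3 with edgeR 4.0.16 (TMM scaling, 6 groups, 16 libraries, residual degrees of freedom 10, quasi-likelihood test), and p-values were adjusted by Benjamini-Hochberg over all of them. Every adjusted p in the text is from this test unless another tool is named. Standard errors were derived from the F statistic. Alternatives used DESeq2 1.42.0 and limma 3.58.1, and the steps were tested on simulated data.

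Named genes were Irf8 with 12 defining genes, the 10 largest changes each way with at least 1 CPM in every group and 10 CPM in the highest, the 6 smallest adjusted p each way among genes with a group under 1 CPM, and up to 3 members of each of 27 gene lists, with a selection by known function. Some genes that meet these rules are not reported here. The genes and lists were chosen with earlier results of these data known. Folds against a group at 0 reads are bounds from a floor of 3 reads over that group. Counting intervals (95%) and floors cover counting error only.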

Additional observations from a re-analysis of the deposited data

Results flagged for a closer look

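By edgeR's test of the difference itself, the genotype effect differed between P14 and adults in 232 genes that were higher and 1272 that were lower in adults. Every gene described above as higher or lower in the contrast is one of these. Of the 12 genes that were called in opposite directions at the 2 ages, lower in IRF8KO at P14 and higher in adults, 10 are listed here with their log2 change. The kinases and structural proteins of mitosis among them were Nek2 (8.06), Bub1b (5.54), Cenpa (3.27), Kif22 (2.89) and the tubulin Tuba1c (2.53). Nek2 had 0 reads in WT adults, so its fitted value depends on the prior count, and the bound with 3 reads is at least 4.36. The others were Qpct (5.70), which cyclises N-terminal glutamine, P2rx1 (2.97), the extracellular glutathione peroxidase Gpx3 (2.93), the semaphorin Sema4b (2.52) and Tmem44 (2.33). Without adult IRF8KO replicate 2 Gpx3 and Tuba1c lost the call in the contrast (edgeR adjusted p = 0.0578 and 0.0648), and the class of opposite calls held 1 gene in place of 12. It held 12 without IRF8KO P14 replicate 3.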

How the results depend on the processing

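The change of the genotype effect was called in 149 to 1817 genes when 1 library was left out, 49 to 252 higher and 100 to 1620 lower. DESeq2 called 2399 (367 higher, 2032 lower), a minimum of 10 CPM in 2 libraries 801 (152 and 649, with fewer genes tested), and a fit of the 10 libraries alone 93 higher and 1314 lower. The cause of these differences was not tested. Leaving out 1 library gave 4588 to 5895 calls for genotype at P14, 320 to 605 in adults, 1967 to 2652 at P9, 3622 to 4764 for age in WT and 18 to 61 for age in IRF8KO. With the 10 CPM minimum, P14, P9 and WT age had 3075, 1578 and 2068 calls. Fits of the compared groups alone gave 3851 (P14), 2906 (WT age) and 6 (IRF8KO age). With reads outside genes as a covariate, P14, adults, WT age and IRF8KO age had 3481, 930, 2733 and 164. DESeq2 gave 911 in adults and 212 for IRF8KO age, limma voom 95 and no low-count filter 199 for IRF8KO age.

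Of 91 called genes named in the text or its lists, 35 kept the call under all 19 alternatives, 56 lost it under at least 1, and none changed sign. Uncalled genes reported here that changed sign, over the fits without 1 library, were Irf8 (-0.74 to 0.18), Tmem119 (-0.17 to 1.15), P2ry12 (-0.64 to 2.43) and Pf4 (-0.54 to 5.745). The covariate gave -0.088 for Csf1r, -0.32 for Tmem119 and -0.50 for Pf4, and calls for Irf8 (-0.99), Sall1 (3.94) and Cx3cr1 (1.52), of which edgeR called Irf8 and Cx3cr1 in no other fit. With no low-count filter Sall1 (2.71) and Mrc1 (1.58) were called. A fit with the replicate number as a block called 1310 genes, 214 higher and 1096 lower. Deviations of log2 CPM from the group mean correlated between same-numbered samples of 2 groups at -0.47 to 0.30, so the numbers were not taken to pair the samples. The classes of genes by their calls at both ages were recounted without each library, an alternative chosen after seeing the data.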

Other observations

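Immediate early genes respond within minutes to stimuli and to tissue dissociation. Of 19 tested, 4 were higher in the contrast (Btg2, Atf3, Zfp36 and Ier3) and none lower, against 1.27% higher and 6.95% lower over all genes. The median of the list was 1.05 against -0.21 over all genes. Btg2, an antiproliferative transcriptional cofactor, had 108 to 152 CPM in WT P14 and 44.7 to 58.2 in IRF8KO P14, and 201 and 223 in WT adults against 245 and 470 in IRF8KO adults. The genotypes did not overlap at either age, and their order was opposite. The Btg2 effect changed by 2.06 ± 0.43 (edgeR adjusted p = 0.00704). Atf3 (edgeR adjusted p = 0.0486) lost its call under 16 of 19 alternatives and Ier3 (edgeR adjusted p = 0.043) under 13. RLE and upper-quartile scaling were among these for both genes. Zfp36 lost its call under 4 alternatives and Btg2 under 1. Summed over the list, levels were 494 to 731 CPM in WT P14, 379 to 666 in IRF8KO P14, 494 to 795 in WT adults and 790.3 to 1902 in IRF8KO adults. Without adult IRF8KO replicate 2, which held the 1902 CPM, none was called and the median was 0.09, and with the share of reads outside genes as a covariate 2 were called and the median was -0.13.

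IRF motifs were counted in the promoters of the genes called in the contrast, as a description with no test. The letters GAAA, 2 bases of any kind and GAAA, searched on both strands, occurred in 3.05% of 197 promoters of the higher genes and 2.84% of 1057 promoters of the lower genes, against 3.10% of 15060 promoters of tested genes. The composite form with GGAA in the first place occurred in 1.52%, 2.08% and 2.38%. Promoters were matched for 167 of the 232 higher and 720 of the 1272 lower genes, and the missing ones were not searched.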
